A study of Homo sapiens with 10 samples.

Results

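The genes described here are 10 genes of the antioxidant response: HMOX1, NQO1, GCLM, GCLC, SRXN1, TXNRD1, TXN, SOD2, GPX1 and SQSTM1. They were taken by gene symbol, and each has 1 transcript in both deposited tables, so they make up 10 of the 11258 transcripts listed in both. The cells were BJ, human fibroblasts immortalised by expression of hTERT, the catalytic subunit of telomerase, and all groups share that background. The groups were untreated control cells and cells given nutlin-3a for 2, 4, 6 or 19 h. Nutlin-3a keeps the ubiquitin ligase MDM2 from binding p53, so that p53 accumulates. RNA-Seq of poly(A) RNA and Ribo-Seq, which sequences the pieces of mRNA covered by ribosomes, were each done once per group, giving 10 libraries. With 1 library per group there is no measure of the spread between replicates, no test was possible, and every error given here covers the counting of reads only.

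NRF2, encoded by NFE2L2, is a transcription factor that KEAP1 holds in the cytoplasm and passes to the ubiquitin ligase built on CUL3 for degradation. Oxidants and electrophiles modify KEAP1, and NRF2 then escapes, pairs with a small MAF protein and binds antioxidant response elements (AREs) near its targets, where BACH1 competes with it. Most of the 10 genes are textbook targets of NRF2, while SOD2 and GPX1 are antioxidant enzymes better known for control by other factors. p53 is itself known to act on cellular redox state, through the sestrins, TIGAR and other targets.

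To show where the ARE core lies close to the starts of these genes, the letters TGACNNNGC were searched on both strands of RefSeq promoter windows (GRCh38.p14). Each window ran from 250 bases before to 50 bases after a transcription start, and a core farther away would not have been found. The table held 15 windows for 9 of the 10 genes, HMOX1 being the gene without an entry, and the core was found in 3 windows of 2 genes, GCLM and TXNRD1. It was present in 13.3% of all 35116 windows. The matches are printed with 10 bases on either side and the core in capitals, each 5′ to 3′ on the strand that holds it. The match in GCLM begins 34 bases before the start, and those in TXNRD1 begin 99, 8 and 102 bases before the transcription start, the last of them before a separate downstream start.
GCLM, chr1:93909446-93909474, plus strand, opposite to the gene: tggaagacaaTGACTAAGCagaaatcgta
TXNRD1, chr12:104215670-104215698, plus strand, that of the gene: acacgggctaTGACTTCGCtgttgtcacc
TXNRD1, chr12:104215761-104215789, minus strand: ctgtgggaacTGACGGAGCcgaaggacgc
TXNRD1, chr12:104286920-104286948, minus strand: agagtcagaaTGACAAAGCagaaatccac
The windows were searched as well for the p53 half-site, the decamer of which 2 copies form a p53 response element, and 6.63% of all windows held at least 1. It was found in 3 of the 15 windows of the 9 genes with an entry, those of GPX1, GCLC and SOD2. GCLC and SOD2 changed in RNA at 19 h by 0.048 and 0.50 on the log2 scale, both within 1.5-fold. The match in GPX1 alone is printed because GPX1 had the largest RNA increase of the 10 genes at 19 h, so these data chose it. It begins 177 bases before the start, on the strand of the gene, and the half-site is in capitals.
GPX1, chr3:49358511-49358540, minus strand: gggccagaccAGACATGCCTgctgctcctt
A match of letters is a description of the sequence and not evidence of binding.

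Levels are FPKM, that is, fragment numbers divided by transcript length and library size. A change is the log2 ratio of a treated library to the untreated one, within an assay. Ribosome density is the Ribo-Seq level, and translational efficiency (TE) is the log2 ratio of the Ribo-Seq to the RNA-Seq level. A gene is said to have risen or fallen where it passed 1.5-fold, which is 0.585 on the log2 scale. Values are given ± the counting standard error (SE). Library totals recovered from the FPKM values were 23845561 to 27554291 reads in RNA-Seq and 7744900 to 14460726 in Ribo-Seq, the lowest being Ribo-Seq at 19 h. They are the totals to which FPKM were scaled, not the numbers of reads sequenced. The comparison set was the 7015 transcripts that reached 5 FPKM in 1 or more libraries of RNA-Seq and also of Ribo-Seq, called tested transcripts below, and it holds 9 of the 10 genes, GCLC being too low. All 6 fibroblast markers (COL1A1, COL1A2, COL3A1, VIM, THY1 and PDGFRB) were present, with summed levels of 7887 to 10099 FPKM in RNA-Seq and 5965 to 14349 FPKM in Ribo-Seq. Of 8 markers of other cell types, the RNA-Seq table listed only CDH1 and PTPRC, both below 1 FPKM, and CD68, a lysosomal protein, at 61.4 to 86.4 FPKM. In these bulk libraries, a change in the make-up of the culture and a change in RNA per cell cannot be told apart.

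In untreated cells the 10 genes spanned a wide range of RNA levels. TXN, NQO1, TXNRD1, GPX1 and SQSTM1 were abundant, at 262, 241, 220, 162 and 127 FPKM. HMOX1, SOD2, SRXN1 and GCLM lay between 12.7 and 23.8 FPKM, near the median of 20.1 FPKM of tested transcripts, and GCLC was lowest at 3.66 FPKM. Each step in this order exceeded the counting error, the smallest being that from TXN to NQO1, 0.12 ± 0.023 on the log2 scale. Under nutlin-3a the genes did not move together: HMOX1 peaked early, GPX1 and SQSTM1 increased late in both assays, SRXN1 passed 1.5-fold in ribosome density from 4 h on but not in RNA, GCLM and TXN fell in ribosome density at 19 h, and NQO1, TXNRD1, SOD2 and GCLC mostly stayed within 1.5-fold.

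**Figure D1:**
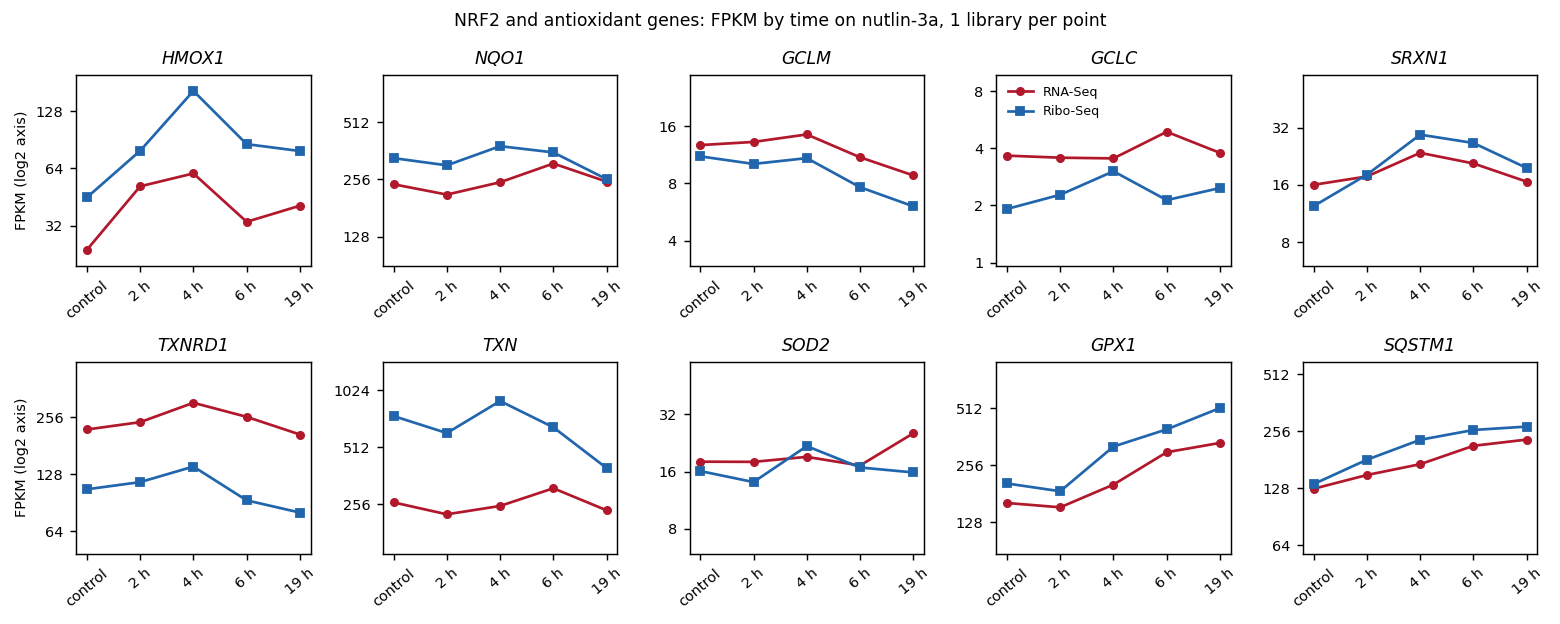
Levels of the 10 genes in each library, in FPKM on a log2 axis, against treatment (control, 2, 4, 6 and 19 h, evenly spaced), for RNA-Seq and Ribo-Seq. Each point is 1 library, and all panels span the same ratio from bottom to top. HMOX1 peaks at 4 h in both assays, and GPX1 and SQSTM1 are highest at 19 h.

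HMOX1, heme oxygenase 1, breaks heme down to biliverdin, iron and carbon monoxide, and is repressed by BACH1 when heme is low. Its RNA stood at 23.8 FPKM in the control and at 51.5, 60.3, 33.5 and 40.7 FPKM at 2, 4, 6 and 19 h. All 4 treated libraries were above the control, with the peak at 4 h. The change was 1.11 ± 0.053 at 2 h and 1.34 ± 0.053 at 4 h, or 2.53-fold, and only 0.741% and 0.770% of tested transcripts had a larger one. It then dropped by 0.85 ± 0.045 between 4 and 6 h, to 0.49 against the control, and was 0.77 at 19 h. Ribosome density was 45.0, 79.3, 164, 86.0 and 79.1 FPKM and peaked at 4 h as well, with a 3.64-fold increase (1.86 ± 0.051). Between 2 and 4 h density increased by 1.05 and RNA by 0.23, and between 6 and 19 h RNA increased by 0.28 while density changed by -0.12. TE differed from the control by -0.29 at 2 h and by 0.53 at 4 h, both within 1.5-fold. Which library served as baseline decided the late values: against the 2 h library, HMOX1 RNA was lower at 6 h by 0.62 and at 19 h by 0.34 on the log2 scale, and its density was higher by 0.12 at 6 h and the same at 19 h (-0.00443). On that baseline its TE was higher by 0.82 at 4 h and 0.74 at 6 h, both past 1.5-fold.

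NQO1, a quinone reductase that uses NADH or NADPH and is a standard readout of NRF2, was among the most abundant of the 10 genes and one of the steadiest. Its RNA was 241, 213, 247, 310 and 249 FPKM in the control and at 2, 4, 6 and 19 h. Its ribosome density was 332, 304, 383, 355 and 257 FPKM. The highest RNA level was 1.46 times the lowest, and no change passed 1.5-fold in RNA, density or TE. The largest was that of TE at 19 h, -0.41 ± 0.029, which lay below 75.5% of tested transcripts.

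GCLC and GCLM are the catalytic and the modifier subunit of glutamate-cysteine ligase, the enzyme of the first and limiting step of glutathione synthesis. GCLM RNA was 12.7, 13.2, 14.5, 11.0 and 8.82 FPKM, lowest at 19 h, where the change of -0.53 ± 0.057 stayed within 1.5-fold, whereas that against the 2 h library, -0.59, passed it. GCLM ribosome density was 11.1, 10.1, 10.9, 7.64 and 6.06 FPKM. It fell by 0.87 ± 0.11 on the log2 scale at 19 h, where 18.6% of tested transcripts were lower still. At 6 h the density change was -0.54, and it was -0.64, past 1.5-fold, once a trend over transcript length (described for TXN) was removed. GCLC RNA was 3.66, 3.57, 3.54, 4.89 and 3.79 FPKM and its density 1.92, 2.28, 3.03, 2.14 and 2.47 FPKM, which rests on few reads. Its density change at 4 h of 0.66 had a 95% counting interval of 0.28 to 1.04, and its TE change there was 0.71 ± 0.22. In RNA GCLM and GCLC thus did not share a course, GCLM being highest at 4 h and GCLC at 6 h. In density the 95% counting intervals of the GCLC changes at 2, 6 and 19 h included 0, so its course there was not settled.

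The thioredoxin system passes electrons from NADPH through thioredoxin reductase (TXNRD1) to thioredoxin (TXN), which reduces peroxiredoxins and other proteins. Sulfiredoxin (SRXN1) restores peroxiredoxins that have been overoxidised. SRXN1 RNA was 16.0, 17.7, 23.6, 20.8 and 16.7 FPKM, highest at 4 h, where the change of 0.56 ± 0.058 fell just short of 1.5-fold. SRXN1 ribosome density was 12.4, 18.1, 29.5, 26.6 and 19.7 FPKM. All 4 treated libraries were above the control, and density rose by 1.25 ± 0.084 at 4 h, 1.11 ± 0.090 at 6 h and 0.67 ± 0.10 at 19 h. TE rose with it, by 0.69 ± 0.10, 0.73 ± 0.11 and 0.61 ± 0.12 at those times. These TE values depended on the scaling and on the baseline. After subtraction of the median change of tested transcripts the value at 4 h was 0.51, and against the 2 h library TE was higher by 0.29, 0.33 and 0.21, none of them past 1.5-fold. With a pseudocount of 1 FPKM in place of the floor the TE change at 19 h was 0.575 and no longer passed. Density against the 2 h library was higher by 0.70 at 4 h, and by 0.56 and 0.12 at 6 and 19 h, the last values within 1.5-fold.

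TXNRD1 RNA was 220, 241, 304, 257 and 207 FPKM and its ribosome density was 107, 116, 140, 93.2 and 80.3 FPKM. Both were highest at 4 h and lowest at 19 h, and no change passed 1.5-fold. The RNA change at 4 h was 0.47 ± 0.013, above 95.2% of tested transcripts. TXN RNA was 262, 227, 251, 311 and 238 FPKM, within 1.5-fold throughout. TXN ribosome density was 747, 608, 897, 652 and 398 FPKM. It fell by 0.91 ± 0.032 at 19 h, and TE fell by 0.77 ± 0.043, where 9.08% of tested transcripts were lower. At 19 h longer transcripts had larger density changes, by 0.17 on the log2 scale for each doubling of length, and TXN is short, with a recovered length of 869 nucleotides against a median of 2603. With that trend removed, the density change of TXN was -0.64 and its TE change was -0.53, the latter within 1.5-fold.

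SOD2, the mitochondrial superoxide dismutase, converts superoxide to hydrogen peroxide, and its gene is a well known target of NF-kappaB. Its RNA was 18.0, 18.0, 19.1, 17.2 and 25.4 FPKM, with the 19 h library above the other four. The change there was 0.50 ± 0.043, within 1.5-fold. Its ribosome density was 16.1, 14.1, 21.8, 16.8 and 15.8 FPKM, highest at 4 h and at the control level at 19 h (-0.024 ± 0.081). The higher RNA level at 19 h thus had no counterpart in density, and TE changed by -0.52 ± 0.092, or by -0.63, past 1.5-fold, with the length trend removed. Against the 2 h library density at 4 h was higher by 0.63.

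GPX1, the cytosolic selenoprotein that reduces hydrogen peroxide with glutathione, increased late. Its RNA was 162, 154, 202, 299.8 and 336 FPKM, with the 6 and 19 h libraries well above the others. The RNA change was 0.89 ± 0.026 at 6 h and 1.05 ± 0.026 at 19 h, a 2.07-fold increase, where 2.21% of tested transcripts had a larger change. Its ribosome density was 205, 187, 321, 396 and 513 FPKM. Density rose by 0.65 ± 0.034, 0.95 ± 0.035 and 1.32 ± 0.035 at 4, 6 and 19 h, while TE stayed within 1.5-fold. After subtraction of the median change of tested transcripts the density change at 4 h was 0.54 and no longer passed. GPX1 rose to the same extent or more against the 2 h library, by 1.13 in RNA and 1.46 in density at 19 h. Its transcript is short as well, at 1146 nucleotides, and with the length trend removed the density change at 19 h was 1.52.

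SQSTM1, also called p62, is an autophagy receptor that binds KEAP1 and so can free NRF2, and it is itself an NRF2 target. Its RNA was 127, 150, 172, 214 and 231 FPKM, each treated library being above the one before. Its ribosome density was 135, 181, 231, 260 and 271 FPKM, in the same order. RNA rose by 0.75 ± 0.019 and 0.86 ± 0.019 at 6 and 19 h, and density rose by 0.77 ± 0.025, 0.95 ± 0.027 and 1.01 ± 0.028 at 4, 6 and 19 h. TE changed by no more than 0.34. Against the 2 h library the RNA change at 6 h, 0.51, and the density changes at 4, 6 and 19 h, 0.349, 0.521 and 0.580, did not pass 1.5-fold, whereas the RNA change at 19 h, 0.62, did.

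**Figure D2:**
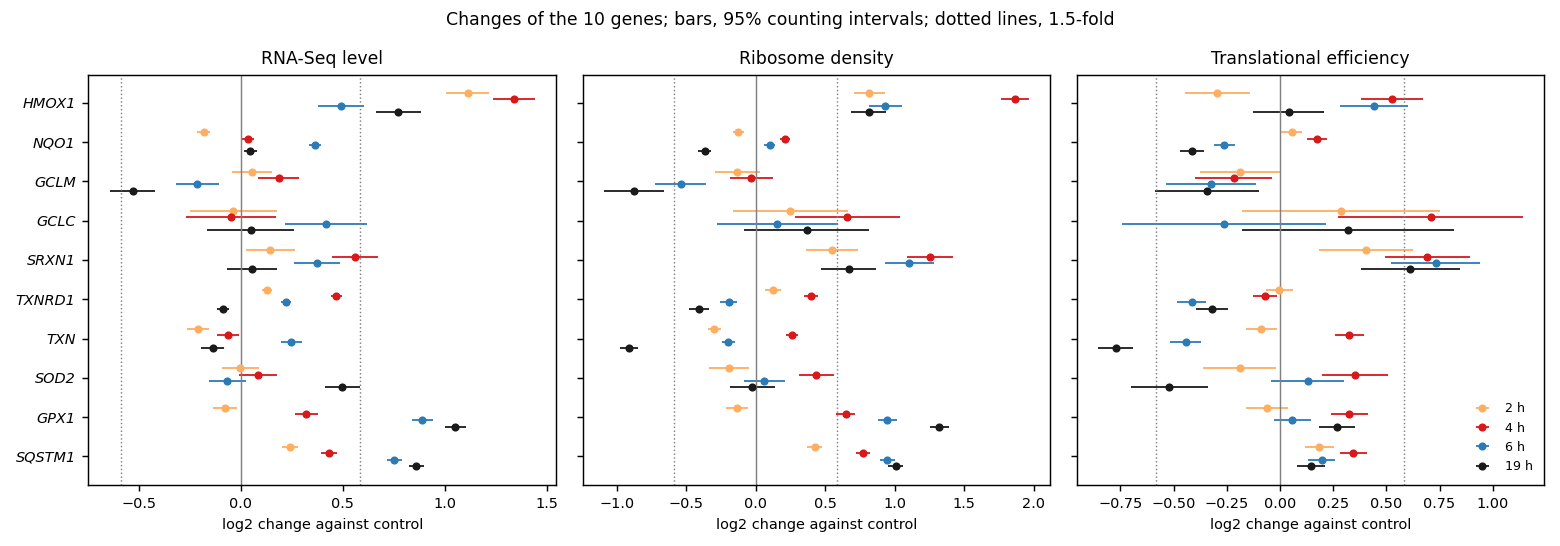
Log2 changes against control in RNA, ribosome density and TE for each of the 10 genes at 2, 4, 6 and 19 h, with 95% counting intervals and dotted lines at 1.5-fold. HMOX1 lies farthest to the right at 4 h, at 1.34 in RNA and 1.86 in density, and TXN and GCLM lie left of the left dotted line in density at 19 h.

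Counted over the 9 tested genes, few passed 1.5-fold in RNA. The number that rose was 1 at 2 h and 1 at 4 h (HMOX1 both times), 2 at 6 h (GPX1 and SQSTM1) and 3 at 19 h (HMOX1, GPX1 and SQSTM1). Of all tested transcripts 2.08%, 3.51%, 5.74% and 7.13% rose at those times. None of the 9 genes fell against the control, where 0.214%, 3.58%, 11.6% and 14.6% of tested transcripts did, so that 2.30%, 7.08%, 17.3% and 21.7% changed in either direction. The median RNA change of the 9 genes was 0.055, 0.32, 0.36 and 0.055, and that of tested transcripts was -0.045, -0.074, -0.0024 and -0.067. Of the 9 genes 6, 9, 7 and 6 were above the median of tested transcripts at 2, 4, 6 and 19 h. At 4 h TXN exceeded it by 0.012 only, less than its counting SE of 0.028. After subtraction of that median SRXN1 passed 1.5-fold as well at 4 h, giving 2 genes, and against the 2 h library none did.

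In ribosome density 1 of the 9 genes rose at 2 h (HMOX1), and 4 rose at 4, 6 and 19 h (HMOX1, SRXN1, GPX1 and SQSTM1 each time). The shares of tested transcripts that rose were 6.96%, 10.4%, 15.0% and 15.0%. None fell before 19 h, where 2.72%, 3.26% and 19.0% of tested transcripts did, and 2 fell at 19 h (GCLM and TXN), where 29.8% did. In either direction 9.68%, 13.7%, 34.0% and 44.7% of tested transcripts changed in density. Against the 2 h library only GPX1 passed 1.5-fold at 6 h, and GPX1, GCLM and TXN did at 19 h. In TE none of the 9 genes rose at 2 h and 1 did at each later time (SRXN1), beside 5.39%, 9.24%, 13.3% and 9.00% of tested transcripts. None fell in TE at 2, 4 or 6 h and 1 fell at 19 h (TXN), beside 1.78%, 0.713%, 12.3% and 15.6%. In either direction 7.17%, 9.95%, 25.6% and 24.6% changed in TE. The TE counts are near the background. The medians of all tested transcripts moved by 0.10 in density and 0.18 in TE at 4 h, and by -0.19 in density at 19 h. Relative to these shifts the density change of GCLM at 19 h was -0.68, that of TXN -0.72 and that of GPX1 1.51, while GPX1 at 4 h, at 0.54, no longer passed, which left 3 genes in density at that time.

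**Figure D3:**
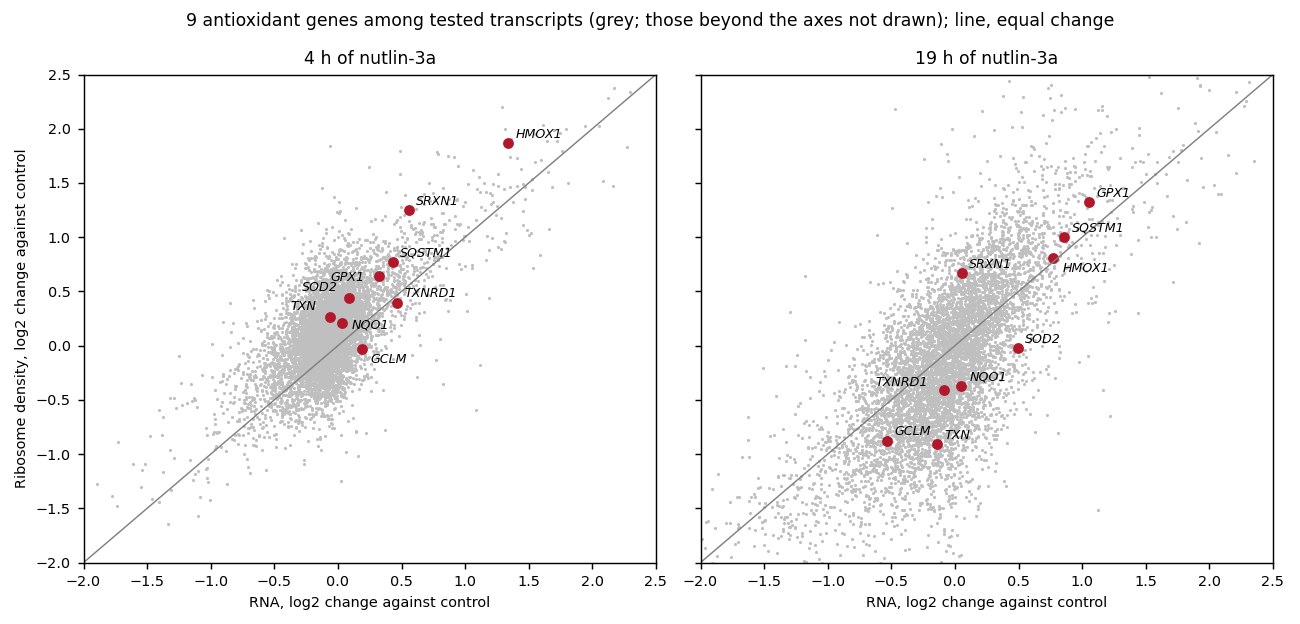
Log2 change in ribosome density (vertical) against log2 change in RNA (horizontal) at 4 and 19 h for the 9 tested genes (red) over tested transcripts (grey), with a line of equal change. At 4 h 7 of the 9 genes lie above the line, HMOX1 and SRXN1 farthest, where the median TE change of tested transcripts was 0.18. At 19 h TXN lies farthest below it among the 9 genes, at -0.91 in density and -0.14 in RNA.

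TE spanned a wide range among the 10 genes. In the control it was 1.51 for TXN, above 97.4% of tested transcripts, followed by HMOX1 (0.92), NQO1 (0.46), GPX1 (0.34), SQSTM1 (0.082), SOD2 (-0.16), GCLM (-0.20), SRXN1 (-0.37), GCLC (-0.93) and TXNRD1 (-1.05). The median of tested transcripts was -0.27. Neighbours in this order differed by more than the 95% counting interval, except SOD2 and GCLM, GCLM and SRXN1, and GCLC and TXNRD1. Within the thioredoxin system TE thus ran from near the top of the tested transcripts (TXN) to the lower part (TXNRD1, above 17.6%). For 7 of the genes a length was recovered from both tables independently, and it was equal in all 7, so the Ribo-Seq values appear to be scaled to the whole transcript, although the methods of the study describe reads of the coding sequence. Which reads entered was not settled here, and the part of UTR length in this order of TE was not tested. The study lists the share of Ribo-Seq reads in coding sequence, and it was higher at 6 h of nutlin-3a than at 19 h. The part of such differences in the density and TE changes was not tested.

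**Figure D4:**
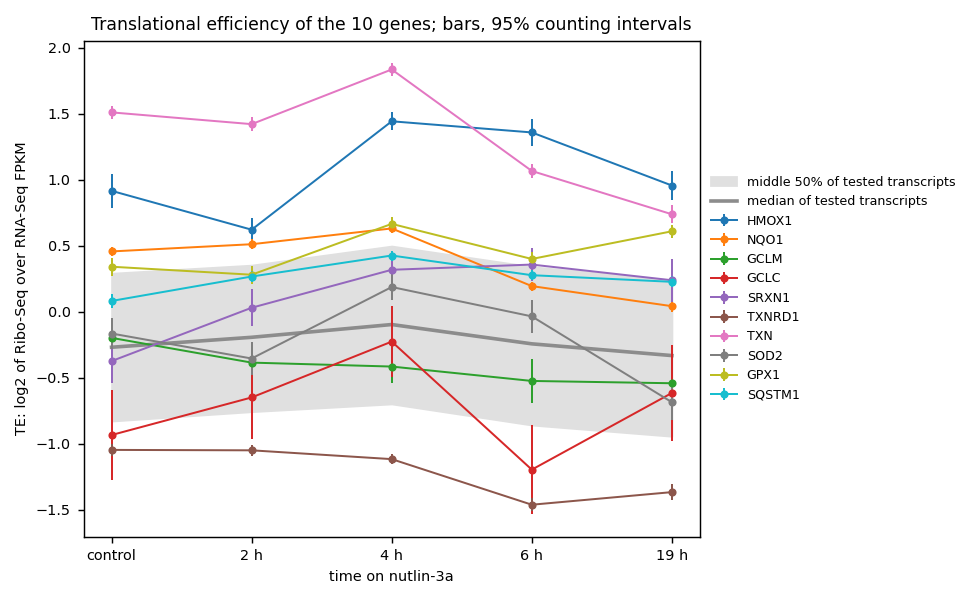
TE (log2 of Ribo-Seq over RNA-Seq FPKM) of the 10 genes in each pair of libraries from control to 19 h, with the middle 50% of tested transcripts as a band. TXN is at the top in the control at 1.51, and TXNRD1 at the bottom at -1.05.

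For the 3 genes with the largest RNA change, the tested transcripts with the most similar pattern were found by the Euclidean distance over 8 changes, those of RNA and density at the 4 times. Among the 3 nearest to HMOX1 were GEM, a small GTPase (distance 0.578), and CEBPB, a transcription factor of stress and inflammation (0.734), where the median distance was 3.25. Both rose in both assays at 4 h, GEM by 1.36 in RNA and 1.91 in density and CEBPB by 1.07 and 1.62. They were chosen by these same changes, so their rise follows from the choice. The nearest to GPX1 were TM7SF3, PHPT1 and PNRC1 (0.449, 0.449 and 0.480, median 2.53). The nearest to SQSTM1 were IP6K2, an inositol hexakisphosphate kinase, TRIP6 and TANC1 (0.303, 0.409 and 0.418, median 2.32).

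Among the tested regulators of NRF2, NFE2L2, BACH1, MAFF and MAFK had their largest RNA change at 2 h, and KEAP1, CUL3 and NFE2L1 had theirs later. NFE2L2 RNA was 35.1 FPKM in the control and 43.8, 39.6, 38.2 and 37.8 FPKM at 2, 4, 6 and 19 h, all 4 treated libraries being higher and within 1.5-fold. KEAP1 RNA ran from 28.4 to 34.4 FPKM, on either side of its control level of 31.2 FPKM. BACH1 RNA was 11.3, 15.9, 13.1, 12.9 and 12.7 FPKM, highest at 2 h with a change of 0.50. Of the 7 tested regulators only MAFF, a small MAF protein, rose in RNA, from 15.3 to 34.1 FPKM at 2 h (1.15), and it was at 10.4 FPKM at 6 h. MAFK, a related protein, was just short of the threshold in RNA at 2 h, at 24.9 and 36.9 FPKM (0.57). The median RNA change of the 7 regulators was 0.32 at 2 h, where that of tested transcripts was -0.045. In ribosome density 2 of the 7 rose at 2 and 4 h, beside 6.96% and 10.4% of tested transcripts, and 0 fell. MAFF rose by 1.30 and 1.09 and MAFK by 0.78 and 0.95. NFE2L2 ribosome density was 23.1, 25.5, 25.4, 20.7 and 17.5 FPKM, lowest at 19 h, where its change of -0.40 lay within 1.5-fold.

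Beyond the regulators, 7 further lists covered the rest of the antioxidant network, and with the regulators they held 75 tested genes. Of these, 4, 10, 11 and 13 rose in RNA at 2, 4, 6 and 19 h and 1, 0, 2 and 3 fell. Of all tested transcripts 2.08%, 3.51%, 5.74% and 7.13% rose and 0.214%, 3.58%, 11.6% and 14.6% fell. The list of p53-linked redox genes carried a large share of the increases. Of its 7 tested genes 2 rose at 2 h and 6 at each later time, with a median change of 2.74 at 19 h. They were SESN1 and SESN2, the sestrins, TP53INP1, C12orf5 (TIGAR, a fructose bisphosphatase), TP53I3, a quinone oxidoreductase, and FDXR, ferredoxin reductase. SESN1 rose from 3.38 to 22.6 FPKM at 19 h and SESN2 from 4.53 to 37.5 FPKM at 4 h. TP53I3 rose from 7.64 to 112 FPKM at 19 h and FDXR from 7.27 to 92.5 FPKM, 14.6- and 12.7-fold. These genes are on the list because they are known to follow p53, so their direction is not independent evidence.

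Without that list 68 tested genes remained, of which 2, 4, 5 and 7 rose at 2, 4, 6 and 19 h in RNA. These are 2.94%, 5.88%, 7.35% and 10.3%, each a little above the share of all tested transcripts given before, and near it. They rest on few genes, in lists chosen with earlier results of these data known. The shares that fell were 1.47%, 0%, 2.94% and 4.41%, below that of all tested transcripts from 4 h on. Some single genes passed 1.5-fold in the same direction at both 6 and 19 h. In the glutathione list GGCT, which acts in glutathione turnover, fell from 21.1 to 9.49 FPKM at 19 h. In the thioredoxin list TXNIP, the inhibitor of thioredoxin, was 7.29, 3.69, 13.8, 16.3 and 11.7 FPKM, below the control at 2 h and above it later. CAT, catalase, rose from 27.3 to 46.2 FPKM at 19 h. TKT, the transketolase of the pentose phosphate pathway, rose from 236 to 404 FPKM, while IDH2, the mitochondrial NADP-dependent isocitrate dehydrogenase, fell from 34.4 to 18.6 FPKM. ABCC3, an exporter of glutathione and glucuronide conjugates, and ABHD4, a lipid hydrolase, rose from 10.0 to 20.4 and from 10.3 to 24.7 FPKM. Both are in the list of other NRF2 targets, where 2 of 12 tested genes rose at 19 h, beside 7.13% of all tested transcripts, and CBR3, a carbonyl reductase, fell (-1.02). No gene of the heme and iron list, 5 tested, passed 1.5-fold in RNA at any time. Outside the rule for named genes, both subunits of the cystine transporter were chosen after their values were seen. In RNA both were past 1.5-fold at 4 h and near the control again at 6 h. SLC7A11 RNA was 16.2, 14.5, 37.6, 19.2 and 13.6 FPKM and SLC3A2 RNA was 52.9, 83.2, 106, 56.0 and 52.7 FPKM, both highest at 4 h. At 2 h SLC3A2 had already risen (0.65), while SLC7A11 had not (-0.16). The ribosome density of SLC3A2 was still higher by 0.46 at 6 h and 0.61 at 19 h, the latter past 1.5-fold. That of SLC7A11 differed by 0.064 and -0.24.

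**Figure D5:**
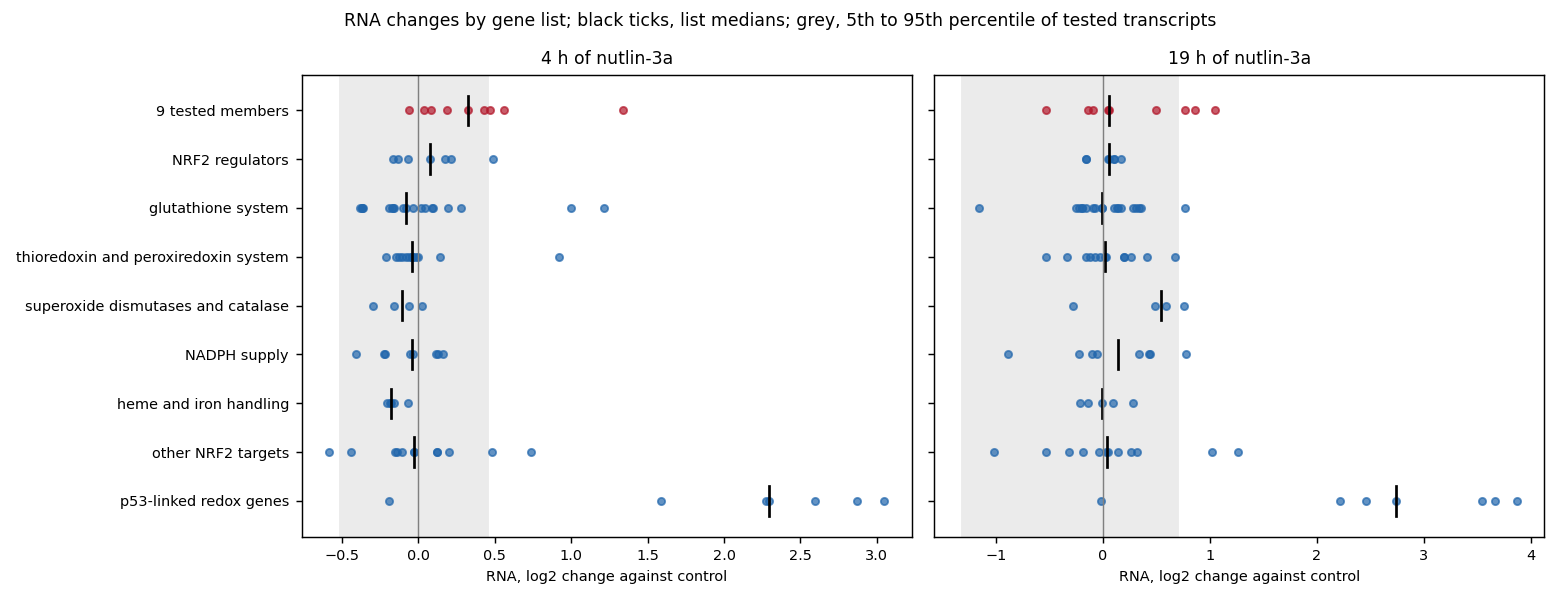
Log2 RNA changes against control at 4 and 19 h for the tested members of each gene list, 1 point per gene, over a band from the 5th to the 95th percentile of tested transcripts. The p53-linked redox genes lie far to the right, with a median of 2.74 at 19 h, and most genes of the other lists lie inside the band.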

How the data were processed

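RNA-Seq and Ribo-Seq libraries of 5 groups were analysed, 1 library per group, and groups were taken from GEO's labels. As the methods of the study state, the authors used Bowtie (version not given in the sources used here) to align reads to protein-coding transcripts of Ensembl release 65, 1 isoform per gene, kept unique hits, and deposited FPKM values with 3 decimals. Reads shared by paralogs were lost by that rule. One table is named for Ribo-Seq alone. The other is named for both assays with 1 column per time, and was read as RNA-Seq. There were 0 unused per-sample columns. The study describes an effect of the sequencing run and states that each condition was set against a control of its run, while the labels name no run, and whether the 2 and 4 h libraries shared it is not given in the sources used here.

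Values were floored at 1 FPKM and set against the control library of the same assay. Reads, transcript lengths and library totals were worked out from the steps between FPKM values, for 99.9% of transcripts in both tables, and 89.6% of the lengths that each table gave on its own were the same in both. The recovery was tested on simulated data. Recovered reads gave counting errors, from the Poisson variance of each log2 read number, and were used in no test. PCR copies could not be told from separate fragments. The genes and gene lists were chosen with earlier results of these data known. The text names all 10 genes, NFE2L2, KEAP1, BACH1, every other listed gene past 1.5-fold the same way in RNA at 6 and 19 h, and the 3 nearest patterns of the 3 genes with the largest RNA change. One of these nearest patterns is not reported here. The 8 other lists held 96 genes, of which 86 were in both tables. The alternatives were a pseudocount of 1 FPKM, a floor of 5 FPKM, no filter, the 2 h library as baseline, subtraction of the median change, removal of the length trend and a 2-fold threshold. Calculations used Python 3.11.15, numpy 2.4.6, pandas 2.3.3 and scipy 1.17.1.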

Additional observations from a re-analysis of the deposited data

How the results depend on the processing

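The counts of genes past 1.5-fold, of the 9 tested, depended most on the threshold and the baseline. At 2-fold the counts in RNA were 0 in place of 2 at 6 h and 1 in place of 3 at 19 h. In ribosome density they were 0, 2, 1 and 2 in place of 1, 4, 4 and 6 at 2, 4, 6 and 19 h, and in TE they were 0 at 4, 6 and 19 h in place of 1, 1 and 2. With the 2 h library as baseline the counts were 0 in RNA at 4 h, 1 and 3 in density at 6 and 19 h, and 1 in TE at 19 h. Other counts kept their size on that baseline but not their genes. In RNA a lower HMOX1 took the place of SQSTM1 at 6 h, and a lower GCLM that of HMOX1 at 19 h. In density SOD2 took the place of SQSTM1 at 4 h, and in TE HMOX1 that of SRXN1 at 4 and 6 h. With the median change of tested transcripts subtracted, 2 genes passed in RNA at 4 h, 3 in place of 4 in density at 4 h (GPX1 lost) and 0 in TE at 4 h. With the length trend removed 5 in place of 4 passed in density at 6 h (GCLM added), and in TE at 19 h SOD2 passed and TXN did not. Without the filter GCLC was added and the TE count at 4 h was 2, and a pseudocount of 1 FPKM left 1 in TE at 19 h (SRXN1 lost). HMOX1 at 19 h reversed against the 2 h library in RNA, to -0.339. Its density was then the same as at 2 h (-0.00443), a reversal by sign alone. Over all alternatives 362 of 477 single changes stayed within the counting interval of the reported value and 113 moved beyond it. The other 2, those of HMOX1 at 19 h, had passed 1.5-fold and reversed in sign. Sign changes of values within 1.5-fold were not counted as reversed. HMOX1 RNA at 6 h was such a value, with 0.49 against the control and -0.62 against the 2 h library. All 108 values stayed within it under the pseudocount and all 108 under the floor of 5 FPKM. No paired analysis was possible because each group held 1 library. Counting errors leave out the spread between cultures, and Ribo-Seq at 19 h, at 7744900 reads, had the lowest recovered total.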

Other observations

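Several genes of the wider antioxidant lists changed in TE at 19 h. Of 19 tested genes of the glutathione system 7 were lower in TE at 19 h by more than 1.5-fold, or GPX8, GLRX, GLRX2, GLRX3, GSTO1, MGST1 and GGCT, and 1 was higher (SLC3A2), with a list median of -0.45 against -0.067 for all tested transcripts, of which 15.6% were lower and 9.00% higher. Of the 7, GGCT alone also fell in RNA at 19 h. MGST1, a microsomal glutathione transferase, had RNA levels of 62.8 and 53.8 FPKM in the control and at 19 h and ribosome densities of 102 and 37.1 FPKM, a TE change of -1.24. PRDX1, an abundant peroxiredoxin, had RNA levels of 232 and 213 FPKM and densities of 439 and 242 FPKM, a TE change of -0.74. In the opposite direction NFE2L1, a relative of NRF2, kept RNA levels between 63.4 and 68.7 FPKM in all 5 libraries, while its density was 27.4 FPKM in the control and 40.6, 32.3, 41.7 and 46.1 FPKM at 2, 4, 6 and 19 h. These genes were picked after their values were seen, and the part of transcript length in these TE changes was not tested.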
